A study of Mus musculus with 11 samples.

Results

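The genes described here encode the proteins of the cytosolic ribosome. They were taken from a table of read counts by symbol: Rpsa, symbols that begin with Rpl or Rps and a digit, and Rplp0, Rplp1 and Rplp2, leaving out the Rps6k kinases, Rps19bp1 and pseudogene symbols. The rule found 88 of the 24421 genes of the table. Of these, 77 are core subunit genes (46 of the large and 31 of the small subunit) and 11 are paralogs or copies. A filter on low counts left 85 of the 88, with all 77 core genes among them. The members left out were Rpl10l, which had 0 counts in every library, and Rpl3l and Rps23rg1, which had at most 4 and at most 5 counts per library.

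RNA-seq was done on Ly49H+ natural killer (NK) cells sorted from spleens of mixed bone marrow chimeric C57BL/6 mice, with mouse cytomegalovirus given as the infection. Ly49H is an activating NK cell receptor for a protein of that virus. The groups are KO D2 (LDHA-deficient, CD45.2, 3 libraries), WT D2 (wild type, CD45.1, 3 libraries), KO D0 (LDHA-deficient, CD45.2, 3 libraries) and WT D0 (wild type, CD45.1, 2 libraries), and genotype and CD45 allele cannot be told apart. Per the labels each library is an individual mouse, but the labels name neither the host of the chimeras nor what removes Ldha. D0 and D2 are taken from the titles, since the label for time after infection gives day 2 throughout; whether the D0 cells came from infected mice is therefore unknown here. WT libraries were placed by title too, because their genotype label lists both genotypes. Lactate dehydrogenase A (Ldha), which converts pyruvate to lactate, had 101 to 115 CPM (counts scaled to a common library size by edgeR) in KO D2 libraries, against 2753 to 3101 in WT D2 libraries, and 91.1 to 104 CPM in KO D0 libraries, against 563 to 656 in WT D0 libraries. Library totals were 19452460 to 27992092 counts, so 3 counts correspond to 0.107 to 0.154 CPM before scaling. Summed NK markers were 14800 to 20500 CPM, summed T cell markers were 10.7 to 27.9 CPM, and no marker of the 8 cell type lists was at 0 in all libraries.

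A ribosome joins a small subunit, which reads the mRNA, to a large subunit, which forms the peptide bond. Each subunit is built in the nucleolus from ribosomal RNA and one copy of most of its proteins, while the P-stalk of the large subunit recruits elongation factors. Ribosomal protein mRNAs carry a 5′ terminal oligopyrimidine (TOP) tract, a C followed by a run of pyrimidines, through which mTORC1 and Larp1 control their translation. NK cells that leave rest to divide are known to enlarge and to raise protein synthesis.

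The TOP tract is the sequence feature these mRNAs are known for, so the start region of 8 chosen members is shown. Rpl13 is not among them, and the 8 do not stand for the whole set. Each sequence holds 10 bases before and 20 bases from the annotated start in the RefSeq table of build GRCm38.p6. Rps27l has 2 annotated starts, of which only the first listed is shown. Capitals mark the longest run of pyrimidines that opens with C in the first 20 bases.
Rps6, chr4:86857348-86857377, minus strand: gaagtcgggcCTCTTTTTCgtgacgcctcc
Rpl15, chr14:18270967-18270996, minus strand: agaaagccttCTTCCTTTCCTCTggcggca
Rplp2, chr7:141447641-141447670, plus strand: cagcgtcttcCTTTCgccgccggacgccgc
Rps2, chr17:24720053-24720082, plus strand: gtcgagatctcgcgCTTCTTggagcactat
Rps27, chr3:90213629-90213658, minus strand: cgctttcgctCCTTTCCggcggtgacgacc
Rps27l, chr9:66946076-66946105, plus strand: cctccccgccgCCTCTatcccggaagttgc
Rpl22l1, chr3:28805498-28805527, plus strand: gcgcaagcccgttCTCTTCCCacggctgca
Rpl7l1, chr17:46782637-46782666, minus strand: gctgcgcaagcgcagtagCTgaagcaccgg
In Rps6, Rpl15, Rplp2 and Rps27 the run began at the annotated start itself. In Rps2 it began at base 5, in Rpl22l1 at base 4 and in Rps27l at base 2, and Rpl7l1 held only a run of 2 bases. Of the 67 members with an entry, 14 (20.9%) opened with a C followed by at least 4 C or T bases on the transcribed strand, against 2.7% of 18214 other genes. A run of at least 8 such bases within the first 50 bases was held by 41 members (61.2%), against 15.2% of the other genes. An annotated start can lie some bases from the start used in these cells, so these are matches of letters only.

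The members together took a larger part of the library at D2 than at D0 in both genotypes. Their share of all counts was 3.33%, 3.64% and 3.53% in KO D2 libraries, 3.16%, 3.21% and 3.68% in WT D2 libraries, 2.59%, 2.20% and 2.71% in KO D0 libraries and 2.09% and 1.94% in WT D0 libraries. Every D2 library lay above every D0 library, KO D2 and WT D2 overlapped, and the KO D0 libraries lay above both WT D0 libraries. The group means were 3.50 ± 0.16% in KO D2, 3.35 ± 0.29% in WT D2, 2.50 ± 0.27% in KO D0 (SD, n = 3 each) and 2.02 ± 0.10% in WT D0 (SD, n = 2). These are pools of cells, so more cells with a transcript and more of it per cell cannot be told apart.

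**Figure D1:**
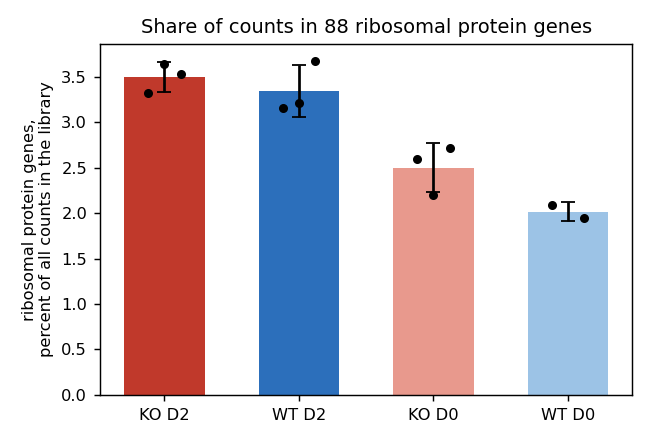
Share of each library's counts that fell in the 88 ribosomal protein genes, in percent, with points for libraries, bars for group means and error bars for the SD (n = 3, and 2 for WT D0). All 6 D2 libraries are at 3.16% or more and all 5 D0 libraries at 2.71% or less.

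The first question is how the ribosomal protein genes differ between D2 and D0 in each genotype. Nearly all of them were higher at D2 in both. In KO cells 77 of 85 tested members rose and 3 fell (edgeR quasi-likelihood test, Benjamini-Hochberg adjusted p under 0.05 over 13711 genes), against 27% of all tested genes called higher and 34.5% called lower. The median log2 fold change of the members was 0.92 (1.89-fold), against -0.20 over all tested genes. In WT cells 80 of 85 rose and 2 fell, against 27.5% of all tested genes called higher and 26% called lower. There the median was 1.24 (2.37-fold), against -0.07 over all tested genes. The D2 libraries did not overlap the D0 libraries and were higher for 76 members in KO cells and 82 in WT cells, against 29.2% and 33.6% of all tested genes. Both subunits took part: the median log2 fold change was 0.98 in KO and 1.28 in WT cells over the large subunit genes and 0.87 in KO and 1.22 in WT cells over the small subunit genes. With plain library totals in place of the trimmed-mean scaling (TMM), the medians were 0.56 in KO and 0.81 in WT cells. With these totals 68 members were called higher in KO and 73 in WT cells, and the median of all genes moved to -0.56 and -0.50. A change of scaling shifts all genes alike. The distance between the medians (1.12 in KO and 1.31 in WT cells) is therefore the same by construction and is no check on scaling. With an offset for the GC content of transcripts, the medians were 0.64 in KO and 1.05 in WT cells, the distances 0.83 and 1.22, and 69 and 78 members were called higher. The shares of all tested genes called with library totals or with this offset are not given here. Summed erythroid markers moved with this comparison, at 44.8 to 142 CPM in KO D2 against 92 to 816 in KO D0 and 24 to 211 CPM in WT D2 against 171 to 780 in WT D0. Summed macrophage and monocyte markers were 10.5 to 16.8 CPM in KO D2 against 27.7 to 50.7 in KO D0, and 10.9 to 15.3 CPM in WT D2 against 46.1 to 74.2 in WT D0. Neutrophil markers were 9.4 to 12.1 CPM in KO D2 against 16 to 24.4 in KO D0, and 9.1 to 11.1 CPM in WT D2 against 15.2 to 25.5 in WT D0. Platelet markers were 2.82 to 4.8 CPM in KO D2 against 6.3 to 9.97 in KO D0, and 2.01 to 2.67 CPM in WT D2 against 10.5 to 11.4 in WT D0. Their part in the result was not tested.

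**Figure D2:**
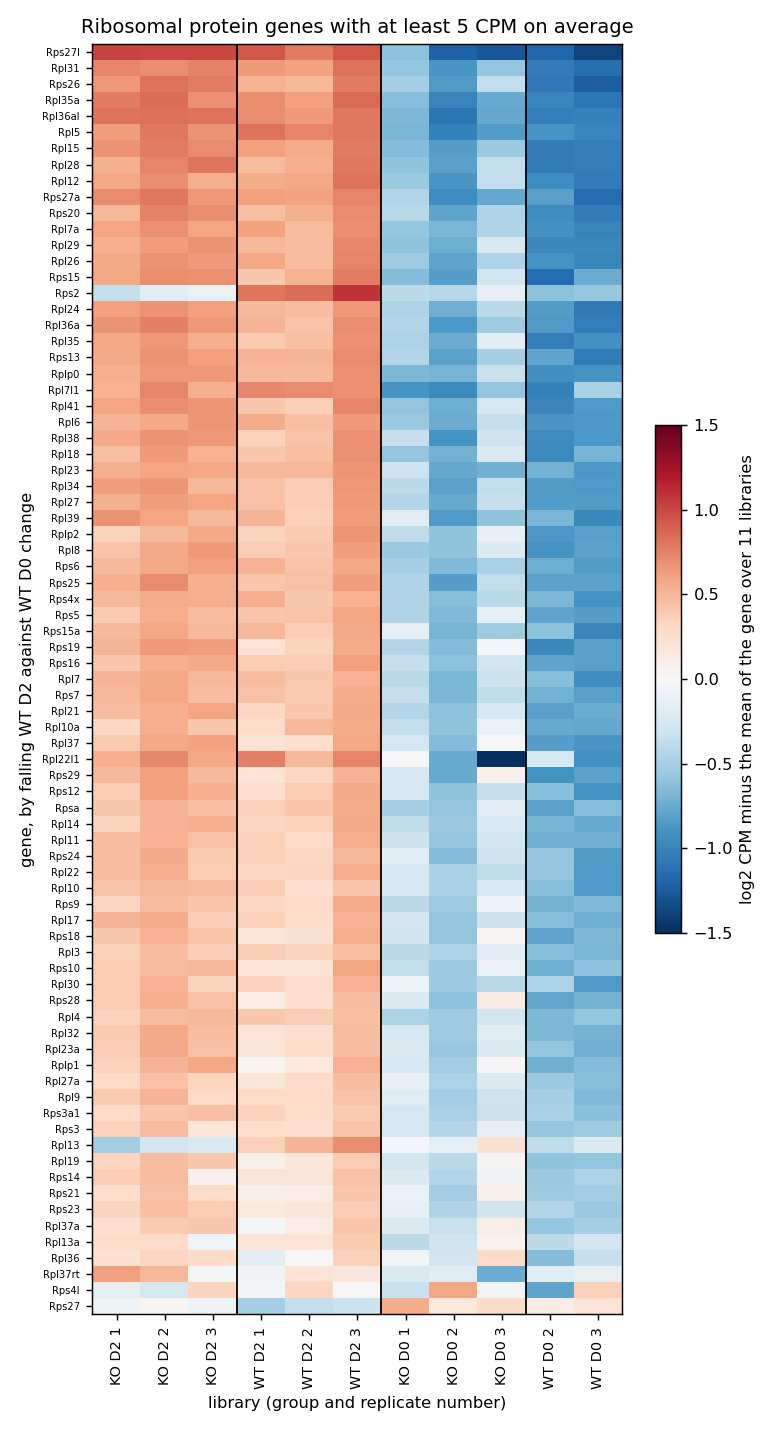
Level of 79 of the 83 ribosomal protein genes with at least 5 CPM on average (rows; the others are not shown) in the 11 libraries (columns), as log2 CPM minus the gene's mean over the libraries, with colours cut at 1.5 either way. Most rows are red in the D2 libraries and blue in the D0 libraries, while Rps2 and Rpl13 are reddest in WT D2 and Rps27 is red in the D0 libraries.

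Among small subunit genes, Rps26, which contacts the mRNA near the exit channel, had 261, 293 and 284 CPM in KO D2 libraries, against 117, 92.3 and 129 in KO D0 libraries, and 238, 235 and 286 CPM in WT D2 libraries, against 79.3 and 70.8 in WT D0 libraries. No D2 library came near a D0 library. Its log2 fold change was 1.31 ± 0.14 in KO (SE; edgeR adjusted p = 3.5e-06) and 1.75 ± 0.16 in WT cells (adjusted p = 1.6e-06). Rps6, the substrate of the S6 kinases downstream of mTORC1, had 977, 1033 and 1070 CPM in KO D2 libraries, against 495, 442 and 499 in KO D0 libraries. In WT cells it had 1001, 941 and 1047 CPM at D2, against 419 and 391 at D0. The groups were apart in both genotypes, with log2 fold changes of 1.10 in KO and 1.30 in WT cells. Rpsa, a small subunit protein that is also known as a laminin receptor precursor, rose by 0.86 in KO and 1.16 in WT cells.

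Among large subunit genes, Rpl15, Rpl31, Rpl35a, Rpl5 and Rpl7a stood high. Rpl5 forms with Rpl11 and 5S RNA the particle that can bind Mdm2 and so stabilise p53. Rpl5 had 581, 652 and 600 CPM in KO D2 libraries, against 234, 186 and 210 in KO D0 libraries, and 662, 627 and 654 CPM in WT D2 libraries, against 202 and 192 in WT D0 libraries. The D2 values were well apart from the D0 values, and its log2 fold change was 1.54 ± 0.11 in KO and 1.72 ± 0.13 in WT cells (SE). Its partner Rpl11 rose less, by 0.86 in KO and 1.13 in WT cells. Rpl15, with the longest start tract of the sequences above, rose by 1.39 in KO and 1.69 in WT cells.

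All 3 stalk genes rose in both genotypes. Rplp0, the scaffold of the stalk, had 1763, 1897 and 1912 CPM in KO D2 libraries, against 764, 747 and 963 in KO D0 libraries. In WT cells it had 1715, 1699 and 1948 CPM at D2, against 639 and 659 at D0. Neither genotype showed any overlap between days, and the log2 fold change was 1.17 ± 0.12 in KO and 1.46 ± 0.14 in WT cells (SE; edgeR adjusted p = 2.6e-06 and 1.9e-06). Rplp1 rose by 0.72 in KO and 0.94 in WT cells, and Rplp2 by 0.82 in KO and 1.31 in WT cells.

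Rps27 was the only core gene that fell in both genotypes. It encodes a zinc-binding protein of the small subunit. It had 136, 145 and 135 CPM in KO D2 libraries, against 209, 158 and 173 in KO D0 libraries, and 99.6, 111 and 114 CPM in WT D2 libraries, against 154 and 165 in WT D0 libraries. In each genotype every D2 library was below every D0 library. It fell by 0.37 in KO (SE 0.12; edgeR adjusted p = 0.016) and by 0.56 in WT cells (SE 0.13; adjusted p = 0.003). The KO call was lost with DESeq2 (-0.26, adjusted p = 0.071), with its scaling (adjusted p = 0.073) and in a fit of the 2 KO groups alone (adjusted p = 0.063).

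Its paralog Rps27l, known in human cells as a p53 target, went the other way. It had 156, 155 and 154 CPM in KO D2 libraries, against 50.5, 33.3 and 32.0 in KO D0 libraries, and 146, 132 and 147 CPM in WT D2 libraries, against 33.7 and 29.7 in WT D0 libraries. The D2 libraries stood far above the D0 libraries, and the log2 fold change was 2.00 ± 0.16 in KO (edgeR adjusted p = 3.9e-07) and 2.16 ± 0.19 in WT cells (adjusted p = 1.1e-06). Per kb of transcript, Rps27l had 310 CPM in KO D2 and 284 in WT D2, against 77.4 in KO D0 and 63.5 in WT D0, while Rps27 had 403 CPM in KO D2 and 314 in WT D2, against 521 in KO D0 and 462 in WT D0. Salmon, the read assignment tool named in the submitters' processing notes, shares reads between similar transcripts, so values of near-identical pairs carry that uncertainty.

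The other paralogs mostly rose beside their partners. Rpl36al rose by 1.66 in KO and 1.73 in WT cells, and Rpl36a by 1.30 and 1.49. Rpl7l1, related to the yeast assembly factor Rlp7, rose by 1.41 in KO and 1.44 in WT cells, and Rpl7 by 0.99 and 1.24. Rpl22l1 had 66.4, 75.8 and 68.7 CPM in KO D2 libraries, against 46.2, 27.2 and 12.2 in KO D0 libraries, and 77.8, 64.2 and 76.0 CPM in WT D2 libraries, against 38.5 and 24.6 in WT D0 libraries. Its D0 libraries were widely spread, and its WT rise of 1.20 (SE 0.39; edgeR adjusted p = 0.019) was lost without WT D0 replicate 3 (0.87, adjusted p = 0.18) or WT D2 replicate 3 (1.11, adjusted p = 0.055), with library totals (0.76, adjusted p = 0.12) and with no filter on low counts (1.15, adjusted p = 0.06). Rpl22, an RNA-binding protein needed for mouse αβ T cell development and known to repress Rpl22l1, rose by 0.84 in KO and 1.11 in WT cells. The small subunit pair Rps4x and Rps4l differed: Rps4x rose by 1.02 in KO and 1.28 in WT cells, whereas Rps4l, annotated as a transcribed pseudogene in RefSeq, had 15.5 to 23.2 CPM in KO D2 against 14.6 to 27.4 in KO D0 and 17.8 to 23.0 CPM in WT D2 against 10.6 to 23.6 in WT D0, and was not called.

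The remaining copies had few reads. Rpl32l had 2, 4 and 9 counts in KO D2 libraries, against 44, 23 and 28 in KO D0 libraries, and 5, 2 and 2 counts in WT D2 libraries, against 18 in each WT D0 library. Both falls passed the test (-2.37 in KO and -2.03 in WT cells), but the WT one was lost without WT D0 replicate 2, WT D2 replicate 2 or WT D2 replicate 3 (adjusted p = 0.051, 0.056 and 0.055). Rpl37rt rose by 0.75 in KO cells (edgeR adjusted p = 0.0057), a call that was lost with plain library totals (0.39, adjusted p = 0.12) and with an offset for GC content (0.35, adjusted p = 0.14) and was not made in WT cells. Rpl39l had 16, 0 and 4 counts in KO D2 libraries, 3, 3 and 12 in WT D2 libraries, 1, 5 and 3 in KO D0 libraries and 1 in each WT D0 library, too few for a fold change. Its partner Rpl39, which lines the exit tunnel of the large subunit, rose by 1.10 in KO and 1.32 in WT cells.

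Across the 77 core genes, the KO and WT changes from D0 to D2, which share no library, had a Pearson r of 0.87 and a Spearman rho of 0.92, and 0.97 for both without Rps2 and Rpl13. These are descriptions across genes, which share libraries and scaling. The WT change had an r of 0.13 with transcript length and of 0.17 with the highest GC content of any 100-base window of the transcript, called peak GC here.

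**Figure D3:**
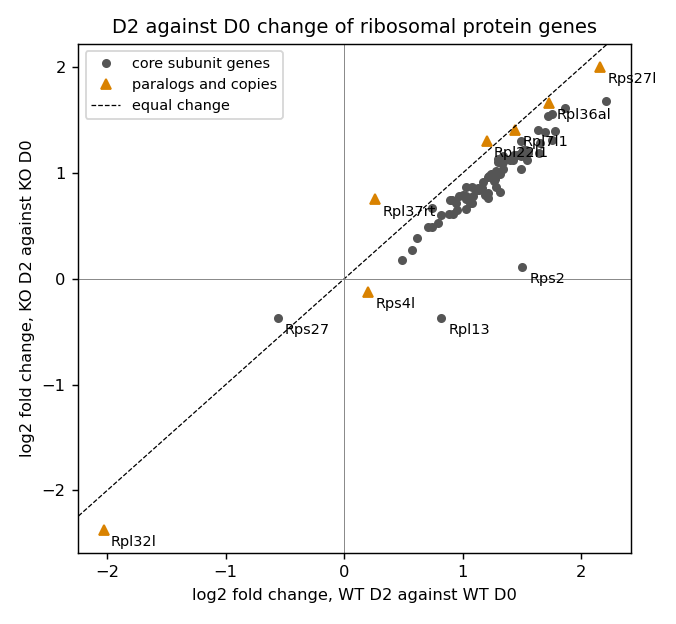
Log2 fold change of 84 ribosomal protein genes (Rpl39l left out for its few counts) in KO cells (vertical) and WT cells (horizontal), with circles for core genes and triangles for paralogs and copies; the dashed line marks equal change. Most genes lie in one band a little below the line, Rps2 (0.11 in KO, 1.50 in WT) and Rpl13 (-0.37 in KO, 0.82 in WT) lie far below it, and Rps27 and Rpl32l are below 0 on both axes.

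The comparison of KO with WT cells at D2 asks how the loss of LDHA bears on these genes in the D2 cells. Rps2 and Rpl13 were lower in KO cells, and no other member was called. That is 2 of 85 members lower and 0 higher, against 14.5% of all tested genes called lower and 1.61% called higher. At an unadjusted p under 0.05 edgeR had 1 member higher, Rps27, against 6.29% of all tested genes, and DESeq2 called that 1 member after adjustment. For 3 members, Rps27, Rps27l and Rpl36al, the KO D2 libraries lay above the WT D2 libraries without overlap, against 12.4% of all tested genes. The other 83 members were between -0.10 and 0.77 on the log2 scale, and the median over all 85 was 0.07, against 0.01 over all genes. At an adjusted p that misses the threshold a difference is not excluded. The SE of core members ran from 0.10 (Rpl3) to 0.17 (Rps29). The widest case, Rps29, had a 95% interval of -0.22 to 0.58, and Rpl3 one of -0.24 to 0.25.

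Rps2 encodes a small subunit protein at the entry of the mRNA channel. It had 541, 622 and 648 CPM in KO D2 libraries, against 1205, 1234 and 1470 in WT D2 libraries, and 529, 517 and 633 CPM in KO D0 libraries, against 453 and 468 in WT D0 libraries. The KO D2 libraries were all below the WT D2 libraries and overlapped the KO D0 libraries. The log2 fold change of KO D2 against WT D2 was -1.11 ± 0.12 (SE; edgeR adjusted p = 0.00012), a level 0.463 times that of WT. Between D2 and D0 the log2 fold change of Rps2 was 0.11 ± 0.12 in KO cells (edgeR adjusted p = 0.46), and in WT cells it rose by 1.50 ± 0.14 (adjusted p = 2.2e-06).

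Rpl13, a large subunit protein, showed a similar pattern. It had 675, 798 and 832 CPM in KO D2 libraries, against 1241, 1388 and 1572 in WT D2 libraries, and 951, 885 and 1139 CPM in KO D0 libraries, against 746 and 844 in WT D0 libraries. KO D2 was below WT D2 and below KO D0 in every library. The log2 fold change of KO D2 against WT D2 was -0.87 ± 0.13 (SE; edgeR adjusted p = 0.00077), or 0.549 times the WT level. At D2 against D0, Rpl13 fell by 0.37 in KO cells (SE 0.13; edgeR adjusted p = 0.029) and rose by 0.82 ± 0.15 in WT cells. That KO fall was lost with DESeq2 (-0.26, adjusted p = 0.14), in a fit of the KO groups alone (adjusted p = 0.07), without KO D0 replicate 3 (adjusted p = 0.057) and without KO D2 replicate 1 (adjusted p = 0.075).

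**Figure D4:**
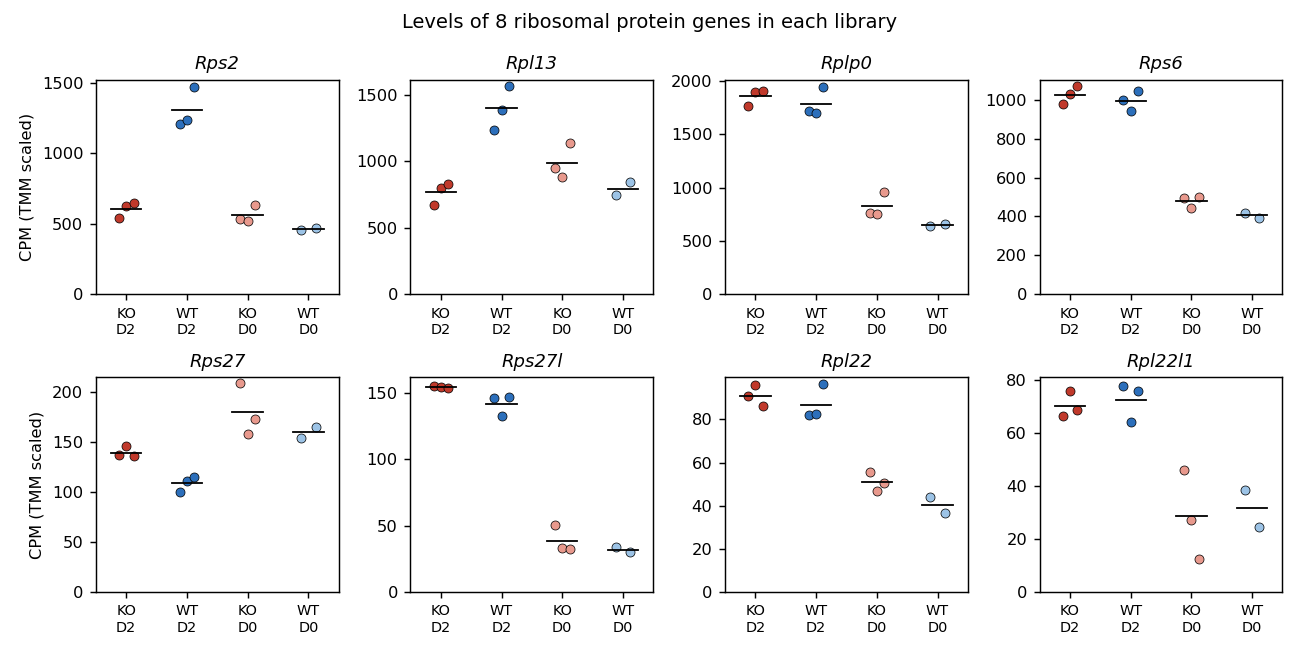
Level in CPM with TMM scaling of 8 ribosomal protein genes in each library (points), with lines for group means, in KO D2, WT D2, KO D0 and WT D0. Rps2 and Rpl13 are lower in KO D2 than in WT D2 libraries, Rplp0 and Rps6 stand at like levels in both D2 groups, and Rps27 and Rps27l move in opposite directions between D2 and D0.

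The GC content of transcripts moved with the KO and WT difference at D2 across the whole table. Of all tested genes with a peak GC of at least 75%, 1703 of 4931 were lower in KO D2 than in WT D2 and 27 were higher, against 251 lower and 182 higher of 7888 other genes. The median log2 level of GC-rich genes minus that of the others, each relative to the gene's mean, was -0.42 ± 0.05 in KO D2, 0.08 ± 0.19 in WT D2, 0.20 ± 0.11 in KO D0 (SD, n = 3 each) and 0.20 ± 0.03 in WT D0 libraries (SD, n = 2). Rps2 (peak GC 77%) and Rpl13 (76%) are among the 10 tested members at or over 75%. The other 8, among them Rpsa (80%), Rps19 (79%) and Rpl35 (78%), were not called and lay between -0.10 and 0.21. With an offset for peak GC in the fit, chosen after seeing the data, Rps2 was still lower in KO D2 than in WT D2 (-0.66 ± 0.11, edgeR adjusted p = 0.0019) and so was Rpl13 (-0.53 ± 0.12, adjusted p = 0.0083). With that offset Rps19 (0.82), Rpsa (0.69), Rpl35 (0.61), Rps7 (0.49) and Rpl38 (0.47), all at or over 75%, were called higher in KO D2. The share of all tested genes called higher with the offset is not given here, so these calls have no background beside them. In KO D2 against KO D0 with the offset, Rps2 was called higher (0.52, edgeR adjusted p = 0.001) and the fall of Rpl13 was lost (-0.08, adjusted p = 0.57). The cause of the GC pattern was not tested.

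**Figure D5:**
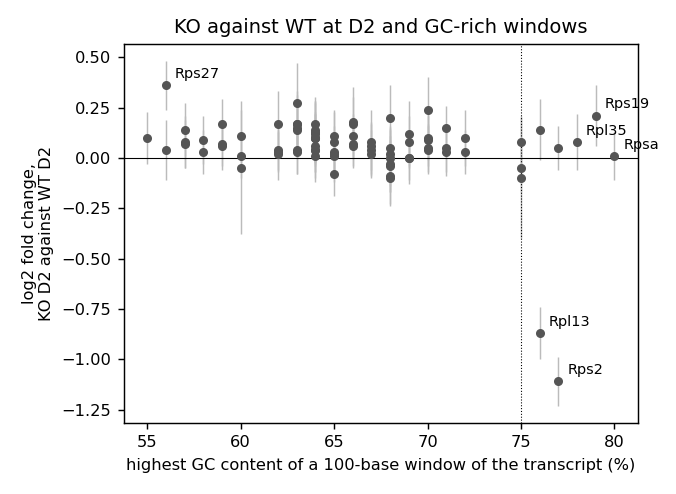
Log2 fold change of KO D2 against WT D2 (vertical, with error bars for the SE) and peak GC of the transcript in percent (horizontal) of ribosomal protein genes with at least 5 CPM on average; the dotted line marks 75%. Rps2 (-1.11) and Rpl13 (-0.87) lie far below 0, while 8 other members at or over 75% lie between -0.10 and 0.21.

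Rps27 was the member nearest to a call in the other direction. Its KO D2 libraries did not overlap its WT D2 libraries and its log2 fold change was 0.36 ± 0.12 (SE; edgeR adjusted p = 0.059). With the replicate number as a block, it was called higher in KO D2 (0.36 ± 0.08, edgeR adjusted p = 0.0054), though what that number marks is not known. Rps27 was also called higher with DESeq2 (0.45, adjusted p = 0.0045) and without KO D0 replicate 1 (0.35, edgeR adjusted p = 0.03). Rpl18 and Rpl13a lie 1.13 and 1.72 Mb from Ldha on chromosome 7 in GRCm38.p6, and neither was called between KO and WT cells at either day.

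The change from D0 to D2 itself was then compared between genotypes, a contrast that uses the same libraries as those above. It was smaller in KO cells for Rps2 (-1.39 ± 0.19, SE; edgeR adjusted p = 0.0073) and Rpl13 (-1.18 ± 0.20, adjusted p = 0.011). These 2 of 85 members were called lower and 0 higher, against 5.72% of all tested genes called lower and 0.124% called higher. At an unadjusted p under 0.05 edgeR had 9 members lower and 0 higher, against 15.4% and 2.22% of all tested genes, and DESeq2 called 0 higher. The median over the members was -0.28 and 82 of 85 values were negative, against a median of -0.04 and 7369 negative values over 13711 genes. The median of the members was 0.34 for KO D0 against WT D0 and 0.07 for KO D2 against WT D2. By these medians the negative shift thus comes from D0, where WT has 2 libraries, since the median at D2 was positive. Rps2 and Rpl13 differ from this, being lower in KO D2 than in WT D2. The members share their libraries, so the negative values are not separate observations. Both calls were lost without WT D0 replicate 2, which leaves 1 WT D0 library (Rps2 -1.36, adjusted p = 0.063; Rpl13 -1.08, adjusted p = 0.084). With the replicate block 3 members were called lower, Rplp2 (-0.48, adjusted p = 0.044) being the third, and Rpl22l1 was called higher (0.69, adjusted p = 0.036).

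At D0 no member was called between KO and WT cells. The counts were 0 higher and 0 lower of 85 with edgeR, and 0 with DESeq2, against 0.0948% and 0.0583% of all tested genes. At an unadjusted p under 0.05, edgeR had 56 members higher in KO D0 and 0 lower, against 2.98% and 1.38% of all tested genes. Rps26 had the smallest p of the members (edgeR adjusted p = 0.61). Rps26 had 117, 92.3 and 129 CPM in KO D0 libraries, against 79.3 and 70.8 in WT D0 libraries, a log2 fold change of 0.58 ± 0.15 (SE). All 77 core genes had a positive log2 fold change, between 0.10 and 0.58, with a median of 0.34, against 0.02 over all genes. For 58 members the KO D0 libraries lay above both WT D0 libraries without overlap, against 10.6% of all tested genes. The genes share their 5 libraries, so these counts describe the libraries and are not separate observations.

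Levels between genes were compared per length, as CPM per kb of the GENCODE M21 transcript. Over the core genes the median level was 559 CPM per kb in KO D2, 528 in WT D2, 300 in KO D0 and 234 in WT D0. Rpl13 was the highest in WT D2 (1795 CPM per kb), KO D0 (1271) and WT D0 (1019), and Rpl41, the shortest ribosomal protein, was the highest in KO D2 (1507), where Rpl13 had 985. The SD of log2 CPM per kb over the core genes was 0.84 in KO D2, 0.87 in WT D2, 0.97 in KO D0 and 0.98 in WT D0. Rps20 was the lowest core gene in every group (74.5 CPM per kb in KO D2 and 70.3 in WT D2), on an annotated transcript of 3706 bases.

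In KO cells 3 core genes were not called between D2 and D0, Rps2 and Rpl36 (0.27) among them. Rpl36 had 253, 272 and 262 CPM in KO D2 libraries, against 211, 179 and 265 in KO D0 libraries, which overlap. In WT cells its log2 fold change was 0.57 (edgeR adjusted p = 0.021), a call that was lost without WT D0 replicate 2 (0.36, adjusted p = 0.24), WT D2 replicate 3 (0.35, adjusted p = 0.15) or KO D2 replicate 3 (0.51, adjusted p = 0.051), with library totals (0.14, adjusted p = 0.49) and with the peak GC offset (0.38, adjusted p = 0.084). The test of the difference between the genotypes missed the threshold (edgeR adjusted p = 0.63).

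Other genes of the translation machinery were read beside the members. Fau, which encodes a ribosomal protein fused to a ubiquitin-like domain, and Rack1, a signalling scaffold on the small subunit, rose in both genotypes. Fau rose by 0.51 in KO and 0.81 in WT cells, though the KO call was lost with plain library totals (0.16, adjusted p = 0.27 with edgeR) and with the peak GC offset (0.16, adjusted p = 0.29), and Rack1 rose by 1.37 in KO and 1.71 in WT cells. All 7 genes on the elongation factor list rose in both genotypes. The largest rise was that of Eef1e1 (2.87 in KO, 2.78 in WT), which is a tRNA synthetase complex protein rather than an elongation factor. Of 32 initiation factors and poly(A)-binding proteins, 25 rose and 2 fell in KO cells and 29 rose and 0 fell in WT cells. Beside both lists, 27% of all tested genes were called higher and 34.5% lower in KO cells, and 27.5% and 26% in WT cells. The helicase Eif4a1 rose by 2.23 in KO and 2.26 in WT cells, and the cap-binding Eif4e by 2.04 and 1.97.

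Between KO and WT cells at D2, 5 of the 32 initiation factors and poly(A)-binding proteins were lower in KO D2 (15.6%), Eif5 (-1.36) and Eif3j1 (-1.23) among them. So was 1 of the 7 genes on the elongation factor list, Eif5a (-0.93, 14.3%). Both shares were near the 14.5% of all tested genes called lower. Of 8 chaperones of ribosomal proteins 4 were lower (50%): Heatr3 (-1.91), Pdcd2 (-1.66), Pdcd2l (-1.06) and Nap1l1 (-0.51). In this comparison 1703 of 4931 genes with a peak GC of at least 75% were lower too. The peak GC of the chaperones is not given here, and the part of the GC pattern in these 4 calls was not tested beyond the Nap1l1 value below. Pdcd2 is known from human cells and flies as the chaperone of Rps2. It had 3.58, 3.55 and 4.89 CPM in KO D2 libraries, against 9.31, 15.7 and 13.1 in WT D2 libraries, and the groups did not overlap (edgeR adjusted p = 0.00075). The Nap1l1 call (adjusted p = 0.029) was lost when any of 5 libraries was left out, and its value was 0.19 with the peak GC offset. Of 12 genes of mTORC1 and TOP mRNA control 2 were lower in KO D2 (16.7%, again near the share of all genes), the mTORC1 activator Rheb (-1.66) and the translation repressor Eif4ebp2 (-1.32). In that list 3 genes rose and 6 fell from D0 to D2 in KO cells, against 27% and 34.5% of all tested genes. In WT cells 4 rose and 3 fell, against 27.5% and 26%. Larp1, which binds TOP mRNAs, rose by 1.81 in KO and 1.97 in WT cells, and Rptor, the mTORC1 scaffold, fell by 1.10 in KO and by 1.24 in WT cells.

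Of 13 genes that host small nucleolar RNAs, 9 rose (69.2%) and 2 fell (15.4%) from D0 to D2 in each genotype. Of all tested genes, 27% were called higher and 34.5% lower in KO cells, and 27.5% and 26% in WT cells. Snhg15 rose by 1.99 in KO and 2.60 in WT cells, and Snhg20 fell by 1.06 in KO and by 0.77 in WT cells. Against these same shares, 62 of 78 mitochondrial ribosomal protein genes rose (79.5%) and 10 fell (12.8%) in KO cells. In WT cells 66 rose (84.6%) and 1 fell (1.28%). Their median log2 fold changes were 0.89 in KO and 0.93 in WT cells. At D2, 12 of these 78 were lower (15.4%) and 1 was higher (1.28%) in KO than in WT cells, near the shares of all tested genes (14.5% and 1.61%).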

How the data were processed

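The deposited table holds raw counts per gene by Entrez ID, whole numbers that the authors made from RNA-seq reads. The submitters' processing notes name bcl2fastq 2.20.0.422, Trimmomatic 0.36, Salmon 0.13.1 and DESeq2 1.22.2, and the build mm10, without their roles; whether the counts are rounded Salmon estimates is not stated there. Symbols came from RefSeq (24387 of 24421 IDs matched). The main test was that of edgeR (version 4.0.16; R 4.3.3), with TMM scaling, filterByExpr, robust quasi-likelihood fit of 4 group means over all 11 libraries (7 residual degrees of freedom), Benjamini-Hochberg adjustment over 13711 genes, threshold 0.05. CPM values use TMM; shares of counts do not. Lengths and GC came from GENCODE M21 transcripts (GRCm38). The test was first checked on simulated data.

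Members and lists were chosen with earlier results of these data known; Rpl32l and Rpl37rt were put with the copies after the table was seen. Named genes are the paralogs with their partners, up to 6 called members per direction and contrast by p, the 3 most and 3 least abundant, a set of members with known roles, and up to 2 companion genes per direction, contrast and list. Rpl36, Rps19, Rpl35, Rps7, Rpl38, Rpl41, Rps20, Rpl18, Rpl13a, Fau, Pdcd2 and Nap1l1 were in part named after their values were seen. Some members and companions are not reported here by name. Same-numbered KO D2 and WT D2 libraries, by the numbers in the titles, deviated together from their group means (r = 0.199 to 0.344 over genes, 3 pairs). Same-numbered KO D0 and WT D2 libraries did so as well (0.267 to 0.344). At D0 the 2 pairs had r = 0.0193 and 0.514, and KO libraries of different days 0.00663 to 0.15. The number thus did not tie D2 libraries alone, and what it marks is not known here. The main test leaves it out. Alternatives were another scaling, DESeq2 1.42.0, other filters, the compared groups alone, the replicate block, each library left out and, added after seeing the data, library totals and a peak GC offset.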

Additional observations from a re-analysis of the deposited data

Results flagged for a closer look

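The change from D0 to D2 differed between KO and WT cells in the edgeR test of the difference for Rps2, by -1.39 on the log2 scale (adjusted p = 0.0073), and for Rpl13, by -1.18 (adjusted p = 0.011). Both calls were lost without WT D0 replicate 2, which leaves 1 WT D0 library (Rps2 -1.36, Rpl13 -1.08). All KO D2 libraries were below all WT D2 libraries for both genes (3 of 3 against 3 of 3), which describes D2 alone. Both also have GC-rich transcripts (peak GC of 77% and 76%), and GC-rich genes were lower in KO D2 libraries across the table; with the peak GC offset the differences were -0.96 (adjusted p = 0.027) and -0.86 (adjusted p = 0.038). The cause was not tested.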

How the results depend on the processing

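Alternatives were followed for the counts, medians and shares and for the values of genes given above. The number of members called higher in KO D2 than in WT D2 was 0, but 1 with DESeq2, its scaling, library totals, a filter at 5 CPM, the compared groups alone or the replicate block, 5 with the peak GC offset, and 0 to 1 with single libraries left out. The number with a larger D0 to D2 change in KO than in WT cells was 1 with the replicate block, and the number with a smaller one was 0 to 2 with single libraries left out. The members that fell in KO cells numbered 1 with DESeq2, its scaling or the KO groups alone, and those that fell in WT cells 1 at 5 CPM and 1 to 2 with single libraries left out. No alternative called a member between KO D0 and WT D0. Values that changed sign were, in KO D2 against KO D0, Rps2 (-0.24 with library totals, -0.03 at 5 CPM, 0 to 0.15 with single libraries left out) and Rpl36 (-0.09 with library totals, -0.04 with the peak GC offset), and in KO D2 against WT D2 the median of the members (-0.03) and Nap1l1 (0.19), both with the peak GC offset. The cause was not tested. Rps2 and Rpl13 were lower in KO D2 than in WT D2 under every alternative run. WT D0 has 2 libraries, so leaving one out assumes that the other varies like the other groups.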
